A study of Mus musculus with 6 samples.

Results

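The oxidative phosphorylation system was followed through 84 nuclear genes that encode its subunits, among 18908 genes listed in the deposited table. They were taken by symbol from the protein-coding rows: complex I by Nduf names, complex II by Sdha to Sdhd, complex III by Uqcr names and Cyc1, complex IV by Cox4 to Cox8 names, and complex V by Atp5 names, with Cycs for cytochrome c. That gave 36 genes of complex I, 4 of complex II, 9 of complex III, 17 of complex IV, 17 of complex V and Cycs, with Ndufa4 and Ndufa4l2 counted in complex IV, where Ndufa4 is now placed. The rule reads names and gene types, not levels, and was written with earlier results of these data known. The study sequenced RNA of mouse cells labelled as bone marrow-derived macrophages, in a series on osteoclast differentiation. The VprBP-labelled group has 3 libraries, with the genotype given as a VprBP1 knockdown made with VprBP shRNA. The control-labelled group has 3 libraries of WT genotype with a control shRNA. Short hairpin RNAs (shRNAs) reduce a transcript of matching sequence; here the target is Dcaf1, for which VprBP is the earlier name, a protein that brings substrates to a ubiquitin ligase. Mouse strain, age, vector, dose and time, and any separate animals or cultures behind the libraries, were not stated in the labels. The p-values thus reflect spread between libraries alone, and that spread may be technical.

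The respiratory chain sits in the inner mitochondrial membrane. Complex I takes electrons from NADH and complex II takes them from succinate; both pass them to ubiquinone, complex III carries them on to cytochrome c, and complex IV gives them to oxygen. Complexes I, III and IV pump protons, and complex V, the ATP synthase, uses the gradient to make ATP. Complex II is built from nuclear genes alone, while the other complexes also hold subunits made from the mitochondrial genome.

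The targeted gene fell little. Dcaf1 stood at 36.0, 34.6 and 36.8 CPM (counts relative to the TMM-adjusted library total) in VprBP-labelled libraries, against 42.2, 43.5 and 40.7 CPM in control-labelled libraries. The groups did not overlap, and VprBP-labelled libraries held 84.9% of the control level (log2 difference -0.24, SE 0.07, edgeR adjusted p = 0.00625; two-sided exact permutation p = 0.1, the smallest that 3 against 3 libraries allow). With library size as the only scaling the Dcaf1 difference was -0.12, with an adjusted p of 0.137. Of 14 macrophage markers only 5 had a row in the table, with a summed level of 20.2 to 21.1 CPM in VprBP-labelled and 37.3 to 40.5 CPM in control-labelled libraries; Csf1r, Adgre1, Itgam, Ptprc and Spi1 were among those without one. The 5 went different ways: Cd68 was called lower, with 1.01 ± 0.27 CPM in VprBP-labelled and 31.6 ± 1.20 CPM in control-labelled libraries (SD, n = 3 each), Mertk, Laptm5 and Lyz2 were called higher, and Cd14 was not called. All 8 pigment cell markers had rows and summed to 19654 to 20163 CPM in VprBP-labelled and 21075 to 21454 CPM in control-labelled libraries. These sums hide opposite changes, with log2 differences of -1.93 to 1.92. Tyr, Sox10, Mitf, Dct and Tyrp1 were called higher, and Slc45a2, Pmel and Mlana were called lower. The markers thus go against the labelled cell type in both groups, and the libraries are called by their labels throughout. Total counts were 16839445 to 21838875 per library, so that 3 counts, the limit a count of 0 allows, correspond to 0.144 to 0.186 CPM.

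Most subunit genes differed between the labels, but so did most genes. Of the 84 subunit genes 83 had enough counts to be tested, and 27 were called higher and 39 lower in VprBP-labelled libraries at an adjusted p below 0.05. Those 66 calls make 79.5% of the tested subunits, beside 75.0% of all 14641 tested genes (37.9% higher and 37.0% lower). The groups did not overlap in 62 of the 83, beside 77.2% of all tested genes. Most subunits are well expressed, and at matched level the order turned. With a mean of at least 10 CPM, 61 of 78 subunits were called (78.2%), beside 83.3% of all 9650 such genes. Groups did not overlap in 57 of those 78, beside 8114 of the 9650. Changes were mostly modest: the median size of the subunits' difference was 0.34 on the log2 scale, against 0.69 over all tested genes. Differences of at least 1 were called for 7 subunits (33.6% of all tested genes reached this): Ndufa4l2, Cox4i2 and Cox7a1 were higher, and Cox6a2, Atp5g1, Cycs and Uqcrq were lower. The median over the 83 was -0.13, and over all tested genes -0.01. In bulk RNA, fewer cells of a type and less RNA per cell cannot be told apart.

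Calls within a complex went both ways, as they did over all tested genes (37.9% higher and 37.0% lower). In complex I, 8 of 36 genes were called higher and 20 lower, with a median log2 difference of -0.21. Complex II had 2 higher and 1 lower of 4, with a median of 0.26. Complex III had 4 higher and 5 lower of 9, with a median of -0.20, which was -0.11 without VprBP-labelled library 1. Complex IV had 8 higher and 4 lower of 16 tested, with a median of 0.12. Its 11 common subunits alone had 4 higher and 3 lower, with a median of -0.03. Complex V had 5 higher and 8 lower of 17, with a median of 0.01. Each of the 5 complexes held called genes in both directions, but in complex II the lower call was Sdhb alone, lost without VprBP-labelled library 2 or 3 and with library size as the only scaling. Neither these counts nor the medians were tested between complexes.

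**Figure D1:**
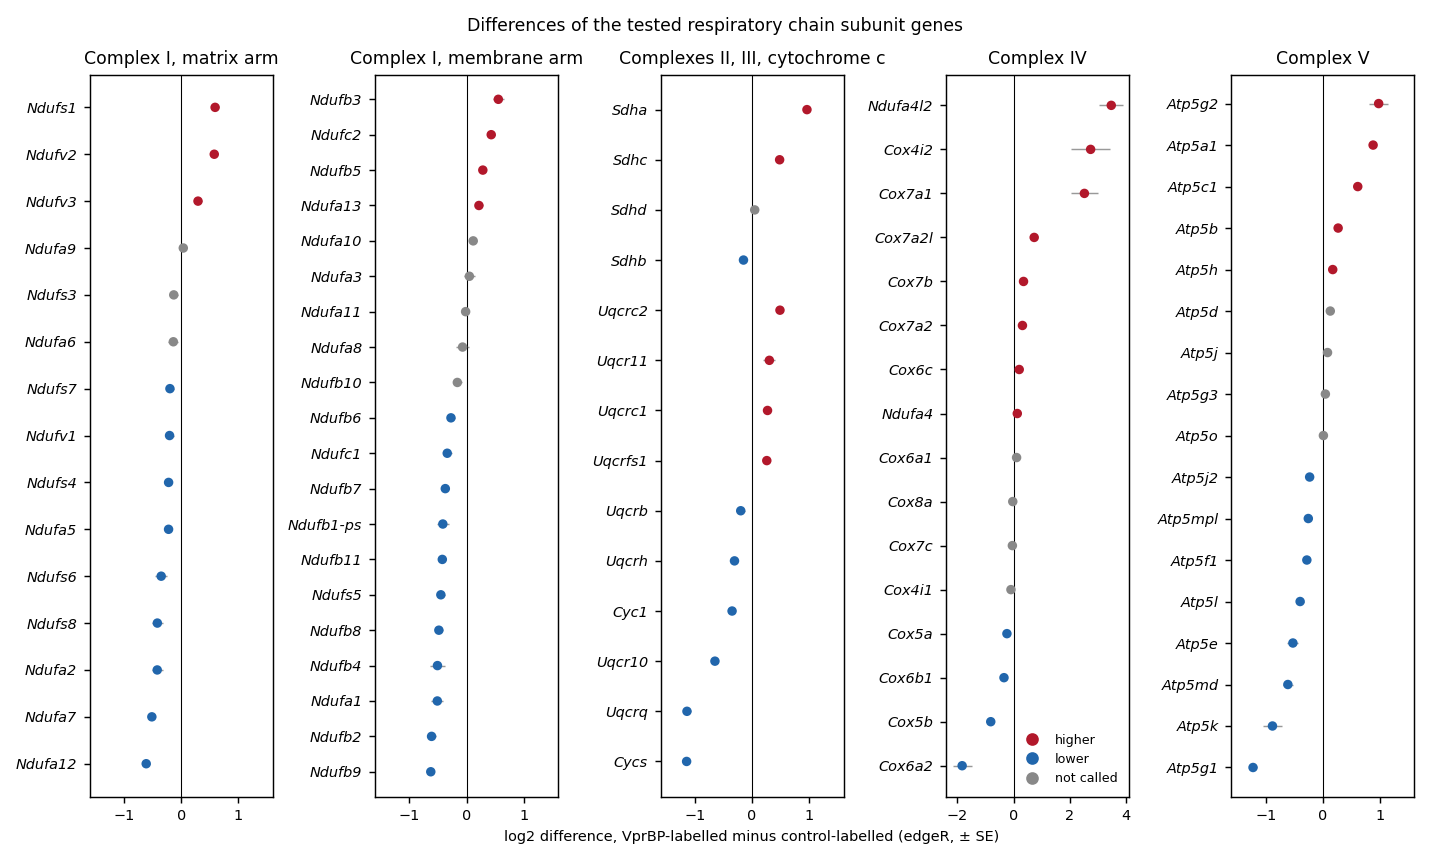
Log2 difference (VprBP-labelled minus control-labelled) of the tested subunit genes, 1 of them not drawn, by complex, with bars of 1 standard error from edgeR. Red points were called higher and blue points lower at an adjusted p below 0.05, and grey points were not called; complexes III to V each hold points well to both sides of 0, while most of complex I lies slightly below it.

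Summed levels separated the complexes more than the counts did. The summed level adds the CPM of all genes of a complex, so the abundant genes weigh most, and it was not tested. Complex II summed to 593, 559 and 557 CPM in VprBP-labelled libraries, against 406, 404 and 431 CPM in control-labelled libraries. Complex III summed to 1133, 1052 and 1067 CPM in VprBP-labelled libraries, against 1289, 1310.1 and 1440 CPM in control-labelled libraries. The groups did not overlap in either, and they lay on opposite sides: VprBP-labelled libraries held 138% of the control level for complex II and 80.5% for complex III. A single gene made up most of the difference in each sum. Sdha averaged 282 CPM in VprBP-labelled and 145 CPM in control-labelled libraries, and Uqcrq 176 and 388 CPM. The sums thus describe these genes more than the complexes as wholes. Complex V averaged 3295 ± 27.2 CPM in VprBP-labelled and 2877 ± 89.8 CPM in control-labelled libraries (SD, n = 3 each), or 114% of control. Complex I averaged 2381 ± 90.7 CPM in VprBP-labelled and 2644 ± 135 CPM in control-labelled libraries (SD, n = 3 each), or 90.1% of control. Complex IV differed by less than the spread between libraries, with 2066 ± 19.0 CPM in VprBP-labelled and 2048 ± 121 CPM in control-labelled libraries (SD, n = 3 each). Over all 84 genes the sums were 9457 ± 184 CPM in VprBP-labelled and 9465 ± 437 CPM in control-labelled libraries (SD, n = 3 each), a difference smaller than the spread between libraries. These ratios depend on the scaling: with library size alone they became 97.6% for complex I, 149% for II, 87.3% for III, 109% for IV, 124% for V and 108% for all 84 genes, whose groups then did not overlap.

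**Figure D2:**
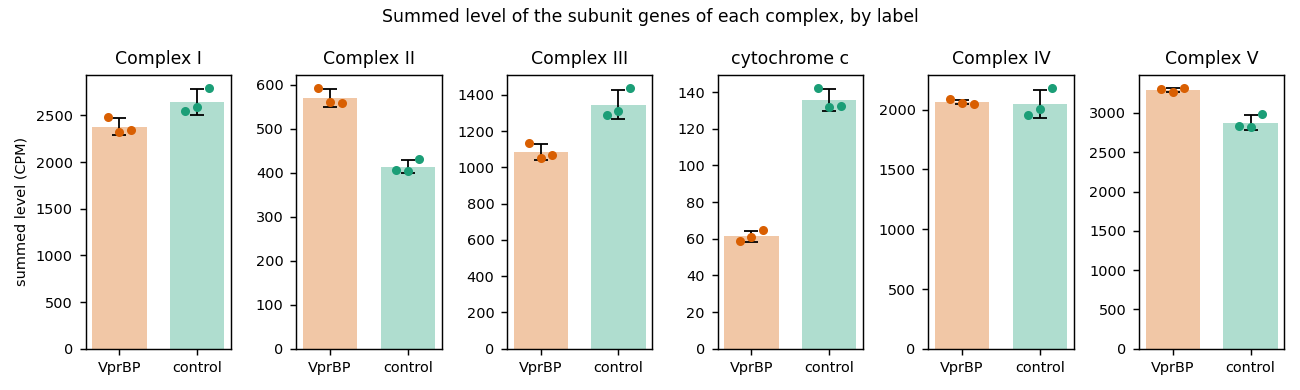
Summed CPM of the subunit genes of each complex, with VprBP-labelled libraries left and control-labelled libraries right in each panel. Bars are means, points are single libraries and error bars are 1 SD over 3 libraries; the groups lie apart for complexes I, II, III and V and for cytochrome c, and overlap for complex IV.

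Levels set between genes need division by length. Per kb of transcript (the median length of a gene's basic protein-coding transcripts in GENCODE M21), the most abundant subunit in VprBP-labelled libraries was Cox6a1 with 734 CPM per kb, against 681 in control-labelled libraries. Atp5b, the catalytic beta subunit, had 710.2 CPM per kb in VprBP-labelled and 591 in control-labelled libraries. Uqcrq, a small complex III subunit, had 350 CPM per kb in VprBP-labelled libraries and 770.2 in control-labelled libraries, where it was the most abundant of all. It was the one subunit among the leading 5 of either group to change by more than 1 on the log2 scale.

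Complex I is an L-shaped assembly with a matrix arm, which holds the flavin and iron-sulfur centres, and a membrane arm, which pumps protons. Of 16 matrix-arm genes 4 were higher and 9 lower (median log2 difference -0.20), and of 20 membrane-arm genes 4 were higher and 11 lower (median -0.31). The 7 nuclear core subunits, which carry the electron path and have bacterial counterparts, split 3 against 3, with Ndufs1 and Ndufv2 among those called higher and Ndufs8, Ndufv1 and Ndufs7 called lower. Ndufs1, the largest core subunit, which binds several iron-sulfur clusters, had 109, 114 and 122 CPM in VprBP-labelled libraries, against 77.6, 80.7 and 70.1 CPM in control-labelled libraries. All VprBP-labelled values lay above all control-labelled ones (log2 difference 0.59, SE 0.06, adjusted p = 9.99e-08). Ndufv2, which carries an iron-sulfur cluster beside the flavin, had 50.9, 52.9 and 48.3 CPM in VprBP-labelled libraries, against 35.6, 32.5 and 33.5 CPM in control-labelled libraries. It too rose without overlap (0.58, SE 0.07, adjusted p = 9.09e-07). Ndufb3, an accessory subunit of the membrane arm, had 29.9, 27.5 and 29.7 CPM in VprBP-labelled libraries, against 17.7, 19.0 and 22.7 CPM in control-labelled libraries (0.56, SE 0.10, adjusted p = 7.85e-05). Ndufc2, Ndufv3, Ndufb5 and Ndufa13, also called higher, had differences of 0.22 to 0.43.

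The larger group of complex I calls was lower. Accessory subunits, which surround the core and serve assembly and stability, made up most of it, as they do of the complex. Only 7 of the 36 genes are core subunits, and accessory subunits were also most of those called higher. Ndufb9, an accessory membrane-arm subunit of the LYR family, had 199.97, 187 and 190.3 CPM in VprBP-labelled libraries, against 277, 297 and 317 CPM in control-labelled libraries. Its groups lay far apart (-0.63, SE 0.05, adjusted p = 4.1e-09). Ndufb2, another membrane-arm subunit, had 44.5, 38.1 and 38.6 CPM in VprBP-labelled libraries, against 55.8, 63.2 and 66.6 CPM in control-labelled libraries (-0.61, SE 0.08, adjusted p = 1.85e-06). Ndufa12, an accessory subunit of the matrix arm, had 49.0, 50.2 and 50.7 CPM in VprBP-labelled libraries, against 79.4, 72.6 and 76.8 CPM in control-labelled libraries (-0.61, SE 0.06, adjusted p = 5.38e-08). All 3 fell without overlap. The other 17 genes called lower had differences of -0.51 to -0.20, among them Ndufs4 and Ndufs6, accessory subunits of the matrix arm, at -0.22 and -0.35, and Ndufb1-ps, annotated as protein coding despite its suffix, at -0.42. Ndufs7 and Ndufv1, both at -0.20, were called although their groups overlapped, as was Ndufa13 among the higher ones. Not called were Ndufb10, Ndufa6, Ndufs3, Ndufa8, Ndufa11, Ndufa9, Ndufa3 and Ndufa10, with differences of -0.16 to 0.12. Of these, Ndufa10 alone had groups that did not overlap.

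Complex II, succinate dehydrogenase, is also an enzyme of the tricarboxylic acid cycle. Sdha, its flavin-binding catalytic subunit, had 289, 285 and 273 CPM in VprBP-labelled libraries, against 142, 143 and 149.9 CPM in control-labelled libraries. The 2 sets stood wide apart, a 1.95-fold rise (log2 difference 0.96, SE 0.05, adjusted p = 1.52e-12). Sdhb, the iron-sulfur partner that docks to Sdha, had 109, 100.5 and 104 CPM in VprBP-labelled libraries, against 113, 115 and 119.9 CPM in control-labelled libraries. It fell slightly and without overlap (-0.15, SE 0.05, adjusted p = 0.0163), a call that is lost without VprBP-labelled library 2 or 3 and with library size as the only scaling. Counts of Sdha were thus 270.3% ± 11.4 of those of Sdhb in VprBP-labelled libraries and 125% ± 1.03 in control-labelled libraries (SD, n = 3 each), a ratio of counts that does not allow for gene length. The membrane anchors Sdhc and Sdhd, which hold the ubiquinone site, also differed from each other. Sdhc had 106, 91.9 and 92.1 CPM in VprBP-labelled libraries, against 68.5, 66.6 and 72.4 CPM in control-labelled libraries (0.48, SE 0.06, adjusted p = 2.34e-06). Sdhd had 89.3, 82.4 and 87.7 CPM in VprBP-labelled libraries, against 82.9, 79.4 and 88.8 CPM in control-labelled libraries, and was not called (0.05, adjusted p = 0.478). Among subunits with a mean of at least 10 CPM, only Atp5g2 of complex V, at 0.97, had a log2 difference above that of Sdha.

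In complex III the redox and core subunits and the small subunits mostly moved apart. Of 4 redox and core genes, 3 were higher and 1 was lower (median 0.26), and of 5 small subunits 1 was higher and 4 were lower (median -0.31). Uqcrc2, a core protein on the matrix side, had 141, 148 and 146 CPM in VprBP-labelled libraries, against 106, 103 and 101 CPM in control-labelled libraries (0.49, SE 0.05, adjusted p = 6.1e-08). Uqcrc1, the other core protein, had 186, 166 and 183 CPM in VprBP-labelled libraries, against 143, 147 and 154 CPM in control-labelled libraries (0.27, SE 0.05, adjusted p = 0.000163). Both rose without overlap, as did Uqcrfs1, the Rieske iron-sulfur protein, at 0.26. Cyc1, the cytochrome that hands electrons to cytochrome c, went the other way, with 253, 229 and 225 CPM in VprBP-labelled libraries, against 290.3, 289 and 321 CPM in control-labelled libraries (-0.35, SE 0.05, adjusted p = 1.31e-05).

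The largest decrease in complex III was in a small subunit. Uqcrq, also known as a ubiquinone-binding protein of the complex, had 194, 166 and 168 CPM in VprBP-labelled libraries, against 350.5, 376 and 438 CPM in control-labelled libraries. All control-labelled values were above all VprBP-labelled ones, a 2.20-fold decrease (-1.14, SE 0.07, adjusted p = 8.92e-11). Uqcr10, a small subunit beside the Rieske protein, had 100.4, 88.7 and 95.7 CPM in VprBP-labelled libraries, against 145, 145 and 157 CPM in control-labelled libraries (-0.65, SE 0.06, adjusted p = 9.32e-09). Uqcrh, the hinge protein between cytochrome c1 and cytochrome c, fell by 0.31 on the log2 scale, and Uqcrb by 0.20, the last with overlapping groups. Uqcr11 was the only small subunit called higher, with 58.6, 44.2 and 46.5 CPM in VprBP-labelled libraries, against 37.1, 36.7 and 47.3 CPM in control-labelled libraries. Its groups overlapped through control-labelled library 3 (0.30, SE 0.11, adjusted p = 0.0162), and the calls of Uqcr11 and Uqcrb were each lost when some single library was left out.

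Cycs, the soluble cytochrome c that shuttles electrons between complexes III and IV and also takes part in apoptosis, had 58.8, 60.8 and 64.6 CPM in VprBP-labelled libraries, against 142, 132 and 132 CPM in control-labelled libraries. Values within each group lay close together and the groups far apart, a 2.21-fold decrease (-1.14, SE 0.06, adjusted p = 3.01e-12). It fell more than its donor Cyc1, and its counts were 26.1% ± 2.74 of those of Cyc1 in VprBP-labelled libraries and 45.3% ± 3.97 in control-labelled libraries (SD, n = 3 each). Cycs carried fractional counts, as do genes whose reads are shared with near-identical copies.

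**Figure D3:**
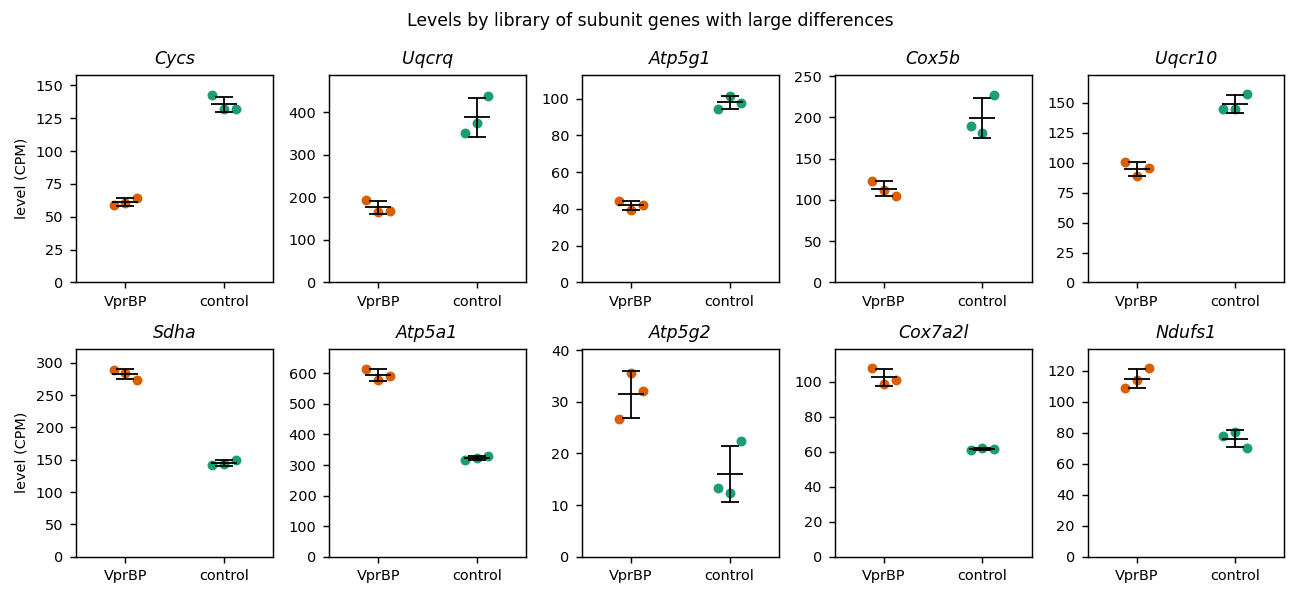
CPM of 10 subunit genes in each library, with VprBP-labelled libraries left and control-labelled libraries right; points are libraries, bars are mean ± 1 SD over 3 libraries, and every axis starts at 0. The VprBP-labelled points lie below the others in the top row and above them in the bottom row, and in no panel do the groups overlap.

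Complex IV, cytochrome c oxidase, is wrapped by small nuclear subunits around a mitochondrially encoded core. Among its 11 common subunits 4 were higher, 3 were lower and 4 were not called (median log2 difference -0.03). Cox5b, a zinc-binding subunit on the matrix side, had 123, 112 and 105 CPM in VprBP-labelled libraries, against 189, 181 and 227 CPM in control-labelled libraries. The groups stood apart, a 1.75-fold decrease (-0.81, SE 0.07, adjusted p = 1.71e-08). Cox6b1, which lies between the monomers of the dimer, had 95.8, 100.5 and 105 CPM in VprBP-labelled libraries, against 125, 124 and 132 CPM in control-labelled libraries (-0.34, SE 0.05, adjusted p = 1.57e-05). Cox5a, another matrix-side subunit, fell by 0.24 on the log2 scale without overlap. On the other side, Cox7b had 138, 159 and 151 CPM in VprBP-labelled libraries, against 116, 112 and 123 CPM in control-labelled libraries (0.35, SE 0.06, adjusted p = 2.49e-05). Cox7a2, at 0.32, Cox6c, at 0.20, and Ndufa4, at 0.13, also rose. Of the common subunits not called, Cox4i1, the subunit through which ATP inhibits the enzyme, had 277, 268 and 268 CPM in VprBP-labelled libraries, against 274, 291 and 303 CPM in control-labelled libraries (-0.09, adjusted p = 0.0771). Cox6a1 (0.11, adjusted p = 0.117), Cox7c (-0.04) and Cox8a (-0.03) completed the set not called, and their groups overlapped. Cox7a2l, which bridges complexes III and IV in supercomplexes, rose most among complex IV genes above 10 CPM. It had 108, 98.5 and 101 CPM in VprBP-labelled libraries, against 61.0, 62.3 and 61.8 CPM in control-labelled libraries, a 1.66-fold rise without overlap (0.73, SE 0.06, adjusted p = 1.44e-09).

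Complex IV also has paralogs whose use is restricted by tissue or oxygen, and 4 of them, all at low levels, could be tested. A gene was tested if it had enough counts in at least 3 libraries. Ndufa4l2, Cox4i2 and Cox7a1 had too few in control-labelled libraries and passed through the VprBP-labelled group alone. That they rose by more than 1 on the log2 scale was thus largely set by the filter. Cox4i2 did not keep its call at a filter of 1 CPM in 3 libraries. Ndufa4l2, a hypoxia-induced relative of Ndufa4, had 4.26, 2.59 and 3.18 CPM in VprBP-labelled libraries, against 0.383, 0.248 and 0.239 CPM in control-labelled libraries. That rests on 79, 48 and 61 counts in VprBP-labelled against 8, 4 and 4 counts in control-labelled libraries, an 11.1-fold rise without overlap (3.47, SE 0.43, adjusted p = 9.88e-07). Its exons overlap those of Shmt2 on the other strand, which averaged 218 CPM and differed by 0.03 on the log2 scale. Cox4i2, the counterpart of Cox4i1 in lung and in oxygen-sensing cells, had 11, 27 and 27 counts in VprBP-labelled libraries, against 4, 5 and 0 counts in control-labelled libraries (6.67-fold; log2 difference 2.74, SE 0.69, adjusted p = 0.00163). Cox7a1, the heart and skeletal muscle counterpart of Cox7a2, had 31, 36 and 30 counts in VprBP-labelled libraries, against 7, 3 and 6 counts in control-labelled libraries (5.72-fold; 2.52, SE 0.48, adjusted p = 0.000125). Cox6a2, the muscle counterpart of Cox6a1, went the other way. It had 21, 17 and 14 counts in VprBP-labelled libraries, against 60, 58 and 58 counts in control-labelled libraries, a 3.55-fold decrease without overlap (-1.83, SE 0.34, adjusted p = 0.000104). None of the 4 paralogs exceeded 2.23% of the counts of its common partner in any library. Cox6b2, the testis counterpart of Cox6b1, had 1, 0 and 3 counts in VprBP-labelled libraries and 1, 1 and 4 counts in control-labelled libraries, too few to test. Cox7b2, Cox8b and Cox8c have no row in the table used here. Values of cell markers stand beside these genes: the 5 of 6 stromal markers with a row summed to 366 to 418 CPM in VprBP-labelled libraries and to 47.3 to 50.3 CPM in control-labelled libraries, and Col1a2 had no row. Most of that sum in VprBP-labelled libraries was Col1a1, with 302 ± 28.1 CPM there and 14.9 ± 1.07 CPM in control-labelled libraries (SD, n = 3 each); Pdgfra and Pdgfrb were also called higher, Dcn was called lower (-1.10), and Lum was not tested. The 3 of 7 muscle and heart markers with a row summed to 0.521 to 1.67 CPM in VprBP-labelled and to 0.191 to 0.372 CPM in control-labelled libraries, too few counts for any of them to be tested. The part of either in these differences was not tested.

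**Figure D4:**
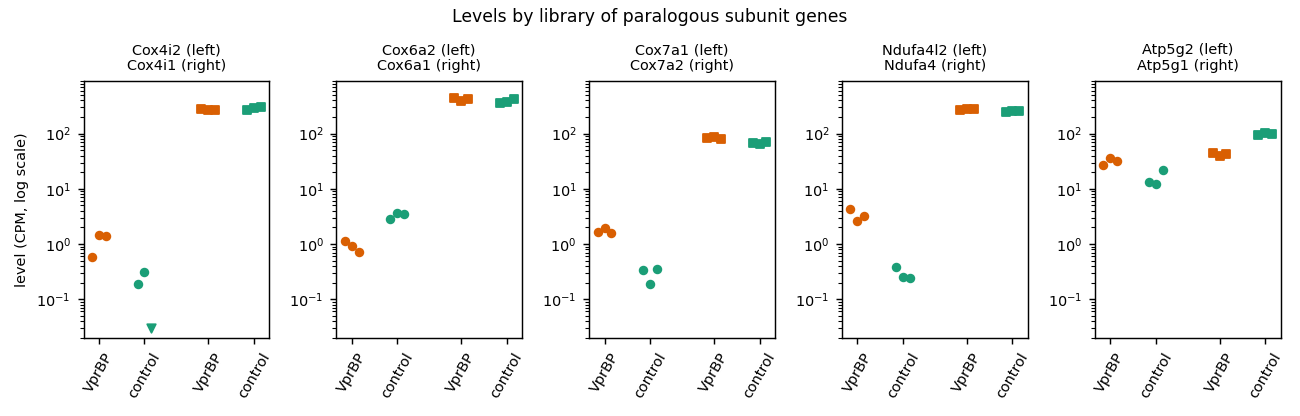
Levels in CPM on a log axis of 4 restricted paralogs of complex IV and of Atp5g2 (circles) beside their partners (squares), each with VprBP-labelled libraries left and control-labelled libraries right. Points are libraries, and a triangle at the foot marks the 1 library with 0 counts; each restricted complex IV paralog lies far below its partner in both groups.

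Complex V has a catalytic F1 head, a rotor with a ring of c subunits, a peripheral stalk and several small membrane subunits, and these parts differed. Of 5 genes of the head 3 were higher and 1 was lower, while all 5 small membrane subunits were lower (median -0.40). Atp5a1, the alpha subunit of the head, had 615, 577 and 589 CPM in VprBP-labelled libraries, against 317, 324 and 328 CPM in control-labelled libraries. It rose 1.84-fold without overlap (0.88, SE 0.04, adjusted p = 1.12e-12). Atp5b, the beta subunit that carries the catalytic sites and pairs with alpha, had 1363, 1359 and 1360.1 CPM in VprBP-labelled libraries, against 1111, 1111 and 1172 CPM in control-labelled libraries (0.27, SE 0.04, adjusted p = 3.18e-06). Atp5c1, the gamma subunit and central shaft, had 147, 157 and 154 CPM in VprBP-labelled libraries, against 97.5, 100.5 and 102 CPM in control-labelled libraries (0.61, SE 0.05, adjusted p = 3.33e-09). The 3 subunits thus rose by unequal amounts. Atp5d, the delta subunit, was not called (0.13, adjusted p = 0.0529), and Atp5e, the small epsilon subunit at the foot of the shaft, fell. Atp5e had 48.2, 34.8 and 37.9 CPM in VprBP-labelled libraries, against 61.0, 52.8 and 60.1 CPM in control-labelled libraries (-0.53, SE 0.10, adjusted p = 9.9e-05).

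The stalk and the small membrane subunits completed the pattern. In the peripheral stalk Atp5f1, its b subunit, fell by 0.28 on the log2 scale and Atp5h, its d subunit, rose by 0.17, while Atp5j (0.08) and Atp5o (0.01) were not called. Counts of Atp5a1 were 484% ± 27.7 of those of Atp5f1 in VprBP-labelled libraries and 217.5% ± 16.3 in control-labelled libraries (SD, n = 3 each). Among the small membrane subunits, Atp5md, which is involved in dimers of the enzyme, had 60.2, 76.8 and 81.6 CPM in VprBP-labelled libraries, against 109, 108 and 118 CPM in control-labelled libraries. It fell without overlap (-0.61, SE 0.08, adjusted p = 2.82e-06). Atp5k, the e subunit, was at a low level, with 5.98, 6.59 and 5.94 CPM in VprBP-labelled libraries, against 9.04, 11.3 and 13.9 CPM in control-labelled libraries (-0.88, SE 0.17, adjusted p = 0.000149). Atp5l, Atp5mpl and Atp5j2 fell by 0.40, 0.26 and 0.23.

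The c ring showed opposite changes in genes for the same protein. Atp5g1, Atp5g2 and Atp5g3 encode an identical mature c subunit with different import sequences. Atp5g1 had 44.2, 39.3 and 42.3 CPM in VprBP-labelled libraries, against 94.3, 102 and 97.8 CPM in control-labelled libraries, a 2.33-fold decrease without overlap (-1.22, SE 0.06, adjusted p = 4.77e-12). Atp5g2 had 26.6, 35.6 and 32.0 CPM in VprBP-labelled libraries, against 13.4, 12.4 and 22.3 CPM in control-labelled libraries. It rose 1.97-fold, with a wide spread inside both groups but no overlap (0.97, SE 0.16, adjusted p = 3.51e-05). Atp5g3, the most abundant of the set, had 168, 155 and 148 CPM in VprBP-labelled libraries, against 151, 146 and 159.7 CPM in control-labelled libraries and was not called (0.04, adjusted p = 0.488). Counts of Atp5g2 were 75.5% ± 15.3 of those of Atp5g1 in VprBP-labelled libraries and 16.4% ± 5.65 in control-labelled libraries (SD, n = 3 each), a balance that differed by more than its spread.

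Promoters of respiratory genes are known for sites of NRF1, of ETS factors such as GABP, and of YY1. Promoter windows of 250 bases before to 50 after the start were taken from RefSeq (GRCm38.p6) and matched 66 of the 84 genes. Windows of 4 genes are printed. Atp5g1 and Atp5g2 moved apart although they encode the same mature c subunit, and Cycs fell. Ndufs7, a complex I core gene, is shown for a motif just after its start and not for its small difference. Lines run 5′ to 3′ on the gene's strand, and capitals mark motif matches: the E-box in Atp5g1, NRF1 in Atp5g2 and Cycs, and YY1 in Ndufs7. Atp5g1 lies at chr11:96075582-96075881 on the minus strand, Atp5g2 at chr15:102670998-102671297 on the minus strand, Cycs at chr6:50566520-50566819 on the minus strand, and Ndufs7 at chr10:80249199-80249498 on the plus strand.
Atp5g1: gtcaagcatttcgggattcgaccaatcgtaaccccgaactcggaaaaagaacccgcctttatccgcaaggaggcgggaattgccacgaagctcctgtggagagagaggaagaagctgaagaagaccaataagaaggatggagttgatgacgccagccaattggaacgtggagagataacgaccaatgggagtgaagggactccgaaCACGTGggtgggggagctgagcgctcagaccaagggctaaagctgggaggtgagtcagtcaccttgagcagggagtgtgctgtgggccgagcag
Atp5g2: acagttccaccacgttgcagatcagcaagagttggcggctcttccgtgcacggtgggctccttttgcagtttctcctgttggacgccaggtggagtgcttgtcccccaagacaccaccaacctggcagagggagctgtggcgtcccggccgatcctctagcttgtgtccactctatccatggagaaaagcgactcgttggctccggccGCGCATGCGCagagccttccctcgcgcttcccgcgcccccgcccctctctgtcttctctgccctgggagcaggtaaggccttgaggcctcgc
Cycs: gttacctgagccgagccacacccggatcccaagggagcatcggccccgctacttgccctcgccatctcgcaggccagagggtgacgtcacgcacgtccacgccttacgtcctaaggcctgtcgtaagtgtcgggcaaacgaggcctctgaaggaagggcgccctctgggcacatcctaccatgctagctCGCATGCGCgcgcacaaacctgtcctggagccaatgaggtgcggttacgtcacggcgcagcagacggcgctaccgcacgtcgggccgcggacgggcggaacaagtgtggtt
Ndufs7: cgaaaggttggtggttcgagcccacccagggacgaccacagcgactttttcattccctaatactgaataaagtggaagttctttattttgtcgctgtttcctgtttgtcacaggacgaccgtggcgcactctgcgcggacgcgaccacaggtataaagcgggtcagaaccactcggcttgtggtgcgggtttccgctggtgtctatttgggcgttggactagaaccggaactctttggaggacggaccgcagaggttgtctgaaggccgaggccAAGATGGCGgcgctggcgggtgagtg

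Motif matches were searched as letters on both strands: NRF1 as GCGCATGCG, ETS as CCGGAAG, YY1 as AAGATGGCG and the E-box as CACGTG. A match of NRF1 was found in 9 of the 66 windows (13.6%), against 4.08% of 10446 windows of tested genes and 1.95% of all 27025. YY1 was found in 7 subunits (10.6%), against 3.48% of tested and 1.64% of all. ETS was found in 17 (25.8%), against 19.9% of tested and 9.93% of all, and the E-box in 5 (7.58%), against 11.7% of tested and 8.09% of all. The YY1 matches stood at a narrow place: 6 of the 7 began 22 to 35 bases after the start, in Ndufs6, Ndufc1, Ndufs4, Ndufs7, Ndufa9 and Atp5j2. By outcome, 2 of the 19 subunits called higher, 10 of 30 called lower and 5 of 16 not called held an ETS match. YY1 matches were in none of the 19 higher, in 5 of the 30 lower and in 2 of the 16 not called, and NRF1 matches in 3 of each. These are descriptions of letters, not of binding, and the counts by outcome were not tested. Matches were not counted by outcome over all tested genes, so whether the split by outcome is particular to subunits is not known. NRF1 matches that read the same on both strands count as an overlapping pair, and ETS and YY1 matches may overlap.

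How reads were shared limits several of these values. Only 15 of the 84 genes had whole counts, within 0.001, in all 6 libraries, against 43.1% of tested genes. The other 69 carried fractions, as arise when reads that fit near-identical copies are divided, and their values are uncertain. A fraction is the distance of a count from the nearest whole number. It does not measure how many reads were divided, so the size of this uncertainty is not known. At a tolerance of 0.05, chosen after the data were seen, 45 genes passed, with 14 called higher and 21 lower. In complex V none of the genes called higher were among them and 5 of those called lower were. Uqcrq, Cycs, Cox5b and Atp5g1 stood further than 0.05 from whole counts and Sdha did not, which does not rank them by shared reads. Exons of 28 subunit genes overlap another gene on the other strand, whose reads cannot be told apart from theirs because the counting's strand setting is not given. Ndufs1 overlaps Eef1b2, at 420.0 CPM with a difference of 0.21, and Cox6c overlaps Vps13b, at 97.3 CPM with a difference of 0.56. Ndufb2, called lower, overlaps Braf, at 101.8 CPM with a difference of -0.27. Some neighbours differed in the opposite direction to their subunit, such as Cpsf2 beside Ndufb1-ps, at 57.5 CPM with a difference of 0.34. The part of these neighbours in the differences was not tested.

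The differences ran with coding length, among subunits and among other genes. Among genes averaging 10 CPM or more, the 19 subunits with a coding length of up to 300 bases had a median difference of -0.26, with 5 higher and 11 lower. For 37 above 300 and up to 600 bases it was -0.20, with 8 higher and 19 lower. For 12 above 600 and up to 1200 bases it was -0.06, with 3 higher and 5 lower. The 7 above 1200 and up to 1800 bases had a median of 0.27, with 6 higher and 1 lower, and the 2 longer ones, Ndufs1 and Sdha, were both higher. Other genes in the same bins had medians of -0.25, -0.26, -0.16, -0.07 and 0.17, from the shortest to the longest bin, and the lowest of these was in the second bin. In the same order 50.7%, 54.7%, 48.2%, 44.6% and 34.6% of these other genes were called lower. In the bins up to 1800 bases 24.3%, 25.3%, 34.9% and 39.5% of them were called higher, and a larger share in the longest bin. More lower than higher calls at short coding lengths were thus not particular to subunits. Across genes, Spearman's rho of coding length with the log2 difference was 0.37 over the 77 subunits and 0.20 over 9138 other genes; genes of a library share its RNA and depth, so this is a description. The bins were chosen after the data were seen, and the part of length in the differences was not tested.

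**Figure D5:**
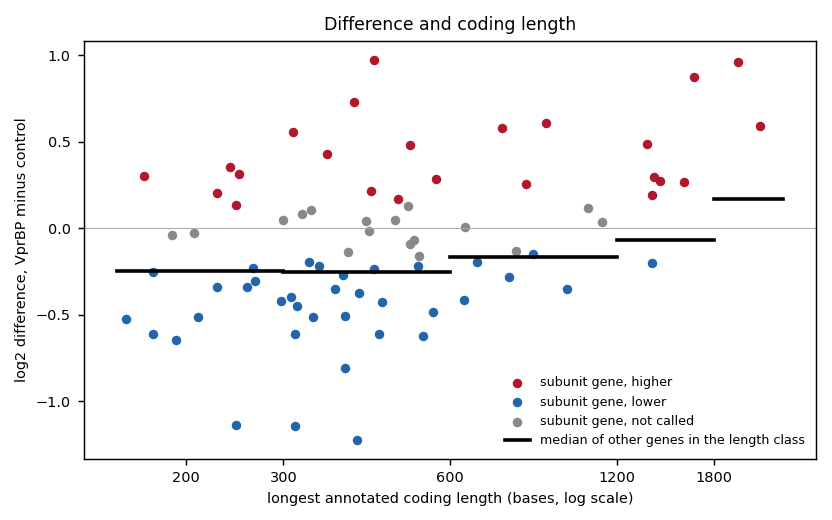
Log2 difference (VprBP-labelled minus control-labelled) against coding length on a log axis for 77 subunit genes averaging 10 CPM or more, red where called higher, blue where called lower and grey where not called. Black lines are the medians of other genes in 5 length bins and run from -0.25 in the shortest to 0.17 in the longest bin; the longest subunits, Ndufs1 and Sdha, lie above 0.

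The libraries of a group were not equally high. Control-labelled library 3 was the highest of its group for 54 of 78 subunits with a mean of at least 10 CPM (69.2%), against 35.8% of all 9650 such genes. VprBP-labelled library 1 was the highest of its group for 44 of the 78 (56.4%), against 38.1%. Uqcrq, Cox5b and Uqcr11 show the pattern in the control-labelled group. With any single library left out, 23 to 29 subunits were called higher and 35 to 40 lower, and no called subunit changed its direction.

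Subunits encoded in the mitochondrial genome moved in one direction. All 13 were called lower, with differences of -2.90 (mt-Nd3) to -0.42 (mt-Co1) and a median of -1.31, and their summed level was 49034 ± 3197 CPM in VprBP-labelled libraries and 94100.4 ± 4815 CPM in control-labelled libraries (SD, n = 3 each). The nuclear subunits of complexes I, III, IV and V thus went both ways beside mitochondrial partners that all fell. With the genes of the mitochondrial genome left out of the fit, all 66 nuclear calls were kept. That fit still held 14626 of the 14641 tested genes, and TMM leaves out the most extreme genes, so it could hardly differ. With library size as the only scaling, 55 of the 66 calls were kept.

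Assembly factors, which help build the complexes without staying in them, are read beside 37.9% higher and 37.0% lower of all tested genes. Of 22 tested complex IV assembly factors 2 were higher and 15 lower (median -0.47); Cox17, the copper carrier, fell to 29.7 ± 1.99 CPM in VprBP-labelled libraries, against 64.3 ± 3.56 CPM in control-labelled libraries (SD, n = 3 each), and Cox11, which delivers copper, fell by 1.28 on the log2 scale, while Coa5 and Cmc1 rose by 0.31 and 0.39. Of 15 complex I assembly factors 3 were higher and 7 lower (median -0.34). Ndufaf4 fell to 17.7 ± 3.17 CPM in VprBP-labelled libraries, against 40.0 ± 4.0 CPM in control-labelled libraries (SD, n = 3 each), and Ecsit fell by 0.89, while Nubpl, which inserts iron-sulfur clusters, and Ndufaf3 rose by 0.83 and 0.78. For complex II 1 of 4 factors was higher and 2 were lower, for complex III 1 of 6 was higher and 2 were lower, and for complex V all 3 were lower. The difference between factors and subunits was not tested.

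Other mitochondrial genes are read beside the same shares. Of 16 regulators of mitochondrial biogenesis 3 were higher and 9 lower (median -0.38). Ppargc1a, a coactivator that drives respiratory genes, fell to 37.1 ± 2.22 CPM in VprBP-labelled libraries, against 90.0 ± 9.65 CPM in control-labelled libraries (SD, n = 3 each), and Gabpb1, a subunit of the ETS factor GABP, fell by 1.13 on the log2 scale. Esrra, a nuclear receptor that acts with Ppargc1a, rose by 0.54, and Polg, the mitochondrial DNA polymerase, by 0.32. Of 17 tricarboxylic acid cycle and pyruvate dehydrogenase genes 10 were higher and 3 lower (median 0.23): Suclg2, a subunit of succinyl-CoA ligase, rose by 1.12 on the log2 scale, while Pdhb and Idh3g fell by 1.68 and 0.18. Of 19 membrane and import genes 9 were higher and 9 lower. Slc25a4, the ADP/ATP carrier, and Vdac1, the outer membrane channel, rose by 1.54 and 0.95, and the chaperonin Hspe1 and the prohibitin Phb fell by 1.71 and 0.68.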

How the data were processed

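RNA of 6 libraries was sequenced, 3 per group. The authors deposited expected counts per gene, not scaled between libraries; the submitters' processing notes name Partek and the build mm10, with no aligner, counting tool, strand setting or annotation release given in the sources used here. Rounded to integers, the deposited expected counts entered edgeR 4.0.16 under R 4.3.3 (quasi-likelihood test, TMM scaling, filterByExpr, group as the only term, all 6 libraries). P-values were adjusted by Benjamini-Hochberg over all 14641 tested genes and called below 0.05; limma 3.58.1 and DESeq2 1.42.0 were loaded for edgeR and for an alternative. Levels are TMM-scaled CPM with mean ± SD, and each log2 difference is VprBP-labelled minus control-labelled. The common biological coefficient of variation was 6.70%. The script was tested on simulated data in which few genes were changed, in random directions. Most genes were called in the real data, so that test could not show how the scaling performs here.

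Depth was 16839445 to 21838875 counts per library, and floors of 3 counts cover only counting error, as these reads carry no molecular identifiers. All 84 subunits matched GENCODE M21 (GRCm38), which gave lengths and overlaps; 3 pseudogenes with matching names (Ndufb4c, Ndufs6b and Atp5l2-ps) were left out as not protein coding. No library looked like a copy of another: at most 5.39% of genes had equal counts in a pair of libraries.

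The subunits, the role groups and the companion lists were chosen with earlier results of these data known. Genes were named by a rule: in complexes I, III, IV and V the 3 called higher and 3 called lower with the largest difference at a mean of at least 10 CPM, all of complex II, Cyc1, Cycs, the paralogs, and from companion lists the 2 called each way with the smallest p; other genes named with a value, such as Atp5k, Atp5g3, Uqcrh and genes that overlap a subunit, were added after their values were seen. Replicate numbers did not pair the libraries: same-numbered libraries deviated together with correlations of -0.03, 0.01 and -0.04. Alternatives were other scalings (DESeq2 size factors, upper quartile, library size only), other filters, DESeq2's Wald test, a replicate block, each library left out, the mitochondrial genome left out, subunits with whole counts only, and Ndufa4 counted with complex I. Among the 18 subunits without a promoter window were Atp5a1, Atp5f1, Atp5mpl, Cox4i1, Cox4i2, Cox6a2, Cox6c, Cyc1, Ndufa2, Ndufa4l2, Ndufb1-ps, Ndufb9, Ndufs1, Sdhc, Uqcrb, Uqcrc2 and Uqcrq. Values of some genes are not reported here.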

Additional observations from a re-analysis of the deposited data

How the results depend on the processing

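Of the 66 subunit calls, all were kept with DESeq2 size factors, with upper quartile scaling and with the mitochondrial genome left out, 65 without a filter and with a filter of 1 CPM, and 64 with DESeq2's Wald test; none turned its direction under any alternative run. Library size as the only scaling moved the median of all tested genes to 0.10 and kept 55 calls. Under it complex II had 0 genes lower, complex V had 9 higher, the medians of complexes I to V were -0.10, 0.38, -0.082, 0.24 and 0.12, the summed levels in VprBP-labelled libraries were 97.6%, 149%, 87.3%, 109% and 124% of control for complexes I to V, and Dcaf1 differed by -0.12 (adjusted p = 0.137). Leaving out 1 library kept 61 to 63 calls. The number of complex II genes called lower was then 0 to 1, and it was 0 without VprBP-labelled library 2 or 3. The complex III median was -0.28 to -0.11, nearest to 0 without VprBP-labelled library 1. The complex V median was -0.043 to 0.050, lowest without VprBP-labelled library 3 and highest without VprBP-labelled library 2. The complex IV median was 0.074 to 0.15, lowest without control-labelled library 1. Calls lost without some single library included Ndufa13, Ndufs7, Ndufv1, Sdhb, Uqcrb, Uqcr11, Ndufa4 and Atp5h. With a replicate block, although the numbers did not pair the libraries, 27 subunits were higher and 38 lower, and the call of Ndufs7 was lost. Keeping only the subunits with whole counts left 6 higher and 5 lower over all: 1 and 3 in complex I, 1 and 0 in II, 1 and 0 in III, 3 and 1 in IV, and 0 and 1 in V, with medians of -0.42 in I, 0.26 in III, 2.52 in IV and -0.88 in V. Counts within 0.05 of whole, a limit chosen after seeing the data, left 14 higher and 21 lower: 4 and 12 in complex I, 2 and 1 in II, 3 and 1 in III, 5 and 2 in IV, and 0 and 5 in V, with medians of 0.26 in III, 0.33 in IV and -0.26 in V. In both cases fewer genes enter, and distance from a whole count does not measure how many reads were shared. Counting Ndufa4 and Ndufa4l2 with complex I gave complex IV a median of 0.040. Depth limits Ndufa4l2, Cox4i2, Cox7a1, Cox6a2 and Cox6b2, which rest on under 100 counts in every library.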
